A study of Mus musculus with 24 samples.

Results

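Granulocyte and monocyte progenitors (GMP) were compared with lymphoid-primed multipotent progenitors (LMPP), both sorted from mice that lack Ikaros. The 6 arrays were those titled KO LK GFPhi (3 arrays, labelled GMP and called KO GMP here) and KO LSK GFPhi (3 arrays, labelled LMPP and called KO LMPP here), of 24 arrays in the series. Every gene on the arrays that carried 1 symbol entered the comparison, 18193 genes in all. The same 2 populations from wild-type mice, WT LK GFPhi (WT GMP, 3 arrays) and WT LSK GFPhi (WT LMPP, 3 arrays), served to show where the KO difference departs from the WT one. KO cells came from the Ikaros-null I74 line (C57BL/6 x 129SV). The cells of all 4 groups were sorted by a GFP transgene built on Ikaros regulatory sequence, the B-p-GFP-C line, of C57BL/6 x C3H background, and were GFP-high. The 3 arrays of a group are biological replicates by their titles, and the labels give neither the ages of the mice nor whether a sample was pooled. RNA was hybridised to 1-colour Affymetrix arrays, and the values are log2 signal after the authors' RMA normalization.

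Ikaros, the product of Ikzf1, binds DNA through zinc fingers, acts in chromatin-remodelling complexes of blood cells and is required for normal lymphocyte development. LMPP retain the stem cell surface phenotype, start to transcribe lymphoid genes and can still form granulocytes and monocytes. GMP have lost the stem cell antigen Sca-1, carry the Fc receptor CD16 and make the proteases and peroxidase of the first granules of neutrophils. The step between these populations is known to switch off stem cell and lymphoid transcription and to switch on the granule programme.

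A difference is given as KO GMP minus KO LMPP on the log2 scale with its standard error from limma, with 3 arrays in each group. Genes were called when the p-value, adjusted over 18193 genes by Benjamini and Hochberg, was below 0.05. The fit held all 24 arrays of the 8 groups, which share 1 estimate of the spread. Of the 18193 genes, 215 (1.18%) were called, 85 higher in KO GMP (0.467%) and 130 lower (0.715%), and 95 (0.522%) of them differed by at least 2-fold. Same-numbered arrays tended to deviate together, though their pairing is uncertain in KO cells. With the replicate number as a block, 647 genes (3.56%) were called, 264 higher (1.45%) and 383 lower (2.11%). At an unadjusted p below 0.05 there were 1926 genes (10.6%). In WT cells the same comparison called 827 genes (4.55%), 367 higher in WT GMP (2.02%) and 460 lower (2.53%), and 2561 (14.1%) with the block. All 3 KO GMP arrays lay above or below all 3 KO LMPP arrays for 212 of the 215 called genes and for 2754 genes (15.1%) of all those tested.

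The KO arrays resembled each other closely. Arrays correlated at r = 0.981 to 0.988 across genes within KO GMP and at 0.989 to 0.996 within KO LMPP, and at 0.977 to 0.990 between an array of KO GMP and an array of KO LMPP. Ikzf1 had log2 signals of 7.83, 6.51 and 7.36 on the KO GMP arrays and 8.19, 7.02 and 7.07 on the KO LMPP arrays, against 11.73, 11.49 and 11.52 in WT GMP and 11.72, 11.41 and 11.59 in WT LMPP. Both KO populations were far below both WT ones, and the KO groups overlapped, with a difference of -0.19 ± 0.36 that was not called (limma, adjusted p = 0.926). One array of the KO cells stood apart, KO GMP replicate 3, which was the highest of the 6 for the summed genes of eosinophils, mast cells and red cell precursors. The Y-linked gene Eif2s3y read 4.01, 7.58 and 7.74 in KO GMP, against 3.99, 7.20 and 4.13 in KO LMPP, so the arrays numbered 3 differed in Y-linked RNA while those numbered 1 and 2 were alike. In WT GMP, replicate 2 stood apart, with an Elane signal of 9.94 where the others had 12.16 and 11.71. A fit of the 6 KO arrays alone called 43 genes, and leaving out single KO arrays gave between 68 (without KO LMPP replicate 3) and 222 (without KO GMP replicate 3).

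Fcgr3, which encodes CD16, a defining marker of GMP, had log2 signals of 9.38, 9.58 and 9.14 in KO GMP, against 6.97, 7.40 and 7.14 in KO LMPP. The groups were well separated, and the difference of 2.20 ± 0.38 was called (4.59-fold higher, limma, adjusted p = 0.00576). Kit and Cd34, present on both populations, gave -0.30 ± 0.38 and -0.51 ± 0.40, neither of them called (adjusted p = 0.875 and 0.739). Flt3, the receptor tyrosine kinase of LMPP, had 10.30, 9.23 and 10.51 in KO GMP, against 11.20, 10.59 and 10.91 in KO LMPP. Its groups did not overlap, yet its difference of -0.89 ± 0.29 missed the threshold (adjusted p = 0.182, and 0.0555 with the block). Over the settings tried, the limma adjusted p of Flt3 ran from 0.031 to 0.522. The gene of Sca-1, Ly6a, was not analysed here. Of 9 markers of progenitor gates measured, Fcgr3 alone was called. The array titles name only LK or LSK and GFP, and do not say that CD16, CD34 or FLT3 was used in the sort. Of 5 markers used for lineage depletion 0 were called by limma, with or without the block, and 1 passed at an unadjusted p below 0.05.

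The list that joins genes of the first neutrophil granules with genes expressed beside them in GMP gave the most calls higher in KO GMP. Among its granule proteases and peroxidase, Elane was called in KO cells, and Mpo, Prtn3 and Ctsg were not. Of 17 such genes measured, 7 were called higher and 0 lower, and the median difference was 0.95 in KO cells, where the median over all genes was 0.04. In WT cells 10 were called and the median was 1.12. All 17 lay above 0 in KO cells, and 14 had KO GMP arrays that did not overlap the KO LMPP arrays. In a bulk sample, a larger share of cells of one kind and more RNA per cell cannot be told apart, which holds for every difference given here.

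Elane, neutrophil elastase, had log2 signals of 12.49, 11.81 and 11.79 in KO GMP, against 10.07, 9.66 and 9.53 in KO LMPP. That was a 4.85-fold rise, 2.28 ± 0.41, beyond the spread of either group (limma, adjusted p = 0.00794). WT cells gave 2.45 ± 0.41 for the same gene, and KO LMPP already stood above WT LMPP, which had 8.66, 8.91 and 8.88. Dmkn, which encodes the secreted protein dermokine, had 9.77, 10.17 and 10.13 in KO GMP, against 7.42, 7.19 and 7.23 in KO LMPP. Its difference of 2.75 ± 0.31 had the smallest adjusted p of the granule list (9.87e-05). Hp, the haemoglobin-binding plasma protein haptoglobin, had 11.87, 11.58 and 10.43 in KO GMP, against 9.996, 9.65 and 8.74 in KO LMPP, a difference of 1.83 ± 0.44 (adjusted p = 0.0449). Its KO GMP replicate 3 lay nearest to the KO LMPP arrays.

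A further 4 members of the granule list rose by less. Igsf6, an immunoglobulin superfamily receptor of myeloid cells, differed by 1.70 ± 0.38 (adjusted p = 0.0321), and Trem3, a receptor of the TREM family, by 1.55 ± 0.34 (adjusted p = 0.0302). Cst7, the cysteine protease inhibitor cystatin F, differed by 1.32 ± 0.30 (adjusted p = 0.033), and Nkg7, a granule membrane protein of cytotoxic and myeloid cells, by 0.95 ± 0.20 (adjusted p = 0.0202). The interaction of Nkg7 passed the threshold with the block (adjusted p = 0.0348) and not in the same fit without it (0.231). Dmkn kept its call whichever of the 6 KO arrays was left out, and Elane lost it only without KO LMPP replicate 3 (adjusted p = 0.0512). The other 5 lost theirs in 4 or 5 of the 6 such fits, with adjusted p up to 0.252, and the count of 7 fell to 1 without KO LMPP replicate 3.

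Mpo, Prtn3, Ctsg and Ms4a3 were not called in KO cells. Mpo, myeloperoxidase, had 14.06, 14.05 and 13.98 in KO GMP, against 13.64, 13.65 and 13.46 in KO LMPP, close in both to 14.5, the highest value on any array. The groups did not overlap, but the difference of 0.45 ± 0.31 was not called (adjusted p = 0.682). Prtn3, proteinase 3, gave 0.30 ± 0.27 in KO cells and 1.05 ± 0.27 in WT cells, and Ctsg, cathepsin G, gave 0.59 ± 0.29 and 1.26 ± 0.29. Both were called only in WT cells, and the interactions were not called (adjusted p = 0.644 and 0.701). Their KO groups did not overlap either, and the standard errors are pooled over all 8 groups. A fit of the 6 KO arrays alone did not call Prtn3 or Ctsg (limma, adjusted p = 0.421 and 0.113). The KO LMPP arrays of Ctsg, 13.47, 13.43 and 13.30, were above those of WT LMPP, 12.18, 12.25 and 12.24. For Ms4a3, a tetraspanning protein of GMP, the difference was 1.11 ± 0.49 in KO cells, not called (adjusted p = 0.401), and 2.18 ± 0.49 in WT cells, called (adjusted p = 0.0118). The KO groups of Ms4a3 did not overlap (SD 0.16 in KO GMP and 0.19 in KO LMPP, against 1.67 in WT GMP). A fit of the 6 KO arrays alone called it (limma, adjusted p = 0.037).

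Transcription factors and receptors of the myeloid lineage gave few calls in KO cells. Of 14 transcription factors 1 was called, the zinc finger factor Egr2 (0.44 ± 0.10, adjusted p = 0.0349), whose call was lost in all 6 fits with an array left out. Cebpa, the factor that is required to form GMP, had 11.20, 10.9998 and 10.54 in KO GMP, against 10.36, 10.61 and 10.41 in KO LMPP. Those groups overlapped (difference 0.45 ± 0.17, adjusted p = 0.3), as did those of Gfi1, a repressor needed by neutrophils (0.39 ± 0.30, adjusted p = 0.728). Of 12 cytokine receptors and Fc receptors, Fcgr3 and Csf2ra were called, both higher. Csf2ra, the alpha chain of the GM-CSF receptor, had 8.99, 9.04 and 9.28 in KO GMP, against 7.96, 8.46 and 8.39 in KO LMPP (0.83 ± 0.17, adjusted p = 0.0226). A further probe set of Csf2ra gave 0.10, so the probe sets of this gene disagreed.

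Of 14 late neutrophil genes measured, 3 were called higher in KO cells, while limma called 0 in WT cells (4 at an unadjusted p below 0.05). The KO count ran from 2 to 5 when single KO arrays were left out, and without WT GMP replicate 2 the WT count was 2 higher. The interaction called 0 of the 14 (7 at an unadjusted p below 0.05), or 1 with the block, so a difference between the genotypes was not shown for the list. The genes called in KO cells were S100a8, a calcium-binding protein of neutrophil cytosol, Lcn2, the iron-siderophore binder lipocalin 2, and Wfdc21, a secreted protein of the whey acidic protein family. S100a8 had 8.62, 9.90 and 7.53 in KO GMP, against 6.30, 6.77 and 6.83 in KO LMPP (2.05 ± 0.48, adjusted p = 0.0399). KO GMP replicate 2 was the highest and replicate 3 the lowest, and the call was lost in 5 of the 6 fits with an array left out (adjusted p up to 0.173).

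Lcn2 had 10.61, 9.99 and 9.47 in KO GMP, against 8.56, 7.94 and 8.29 in KO LMPP, a 3.39-fold rise (1.76 ± 0.30, adjusted p = 0.00526) that held whichever KO array was left out. Its WT levels were far lower, 5.18, 4.51 and 6.12 in WT GMP and 4.36, 4.63 and 4.59 in WT LMPP, while the interaction was not called (1.02 ± 0.42, adjusted p = 0.546). Wfdc21 differed by 1.43 ± 0.24 (adjusted p = 0.005), with its highest value, 8.32, on KO GMP replicate 1. The antimicrobial peptide gene Camp gave 0.60 ± 0.20 and was not called (adjusted p = 0.205), and the median over the 14 genes was 0.17.

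**Figure D1:**
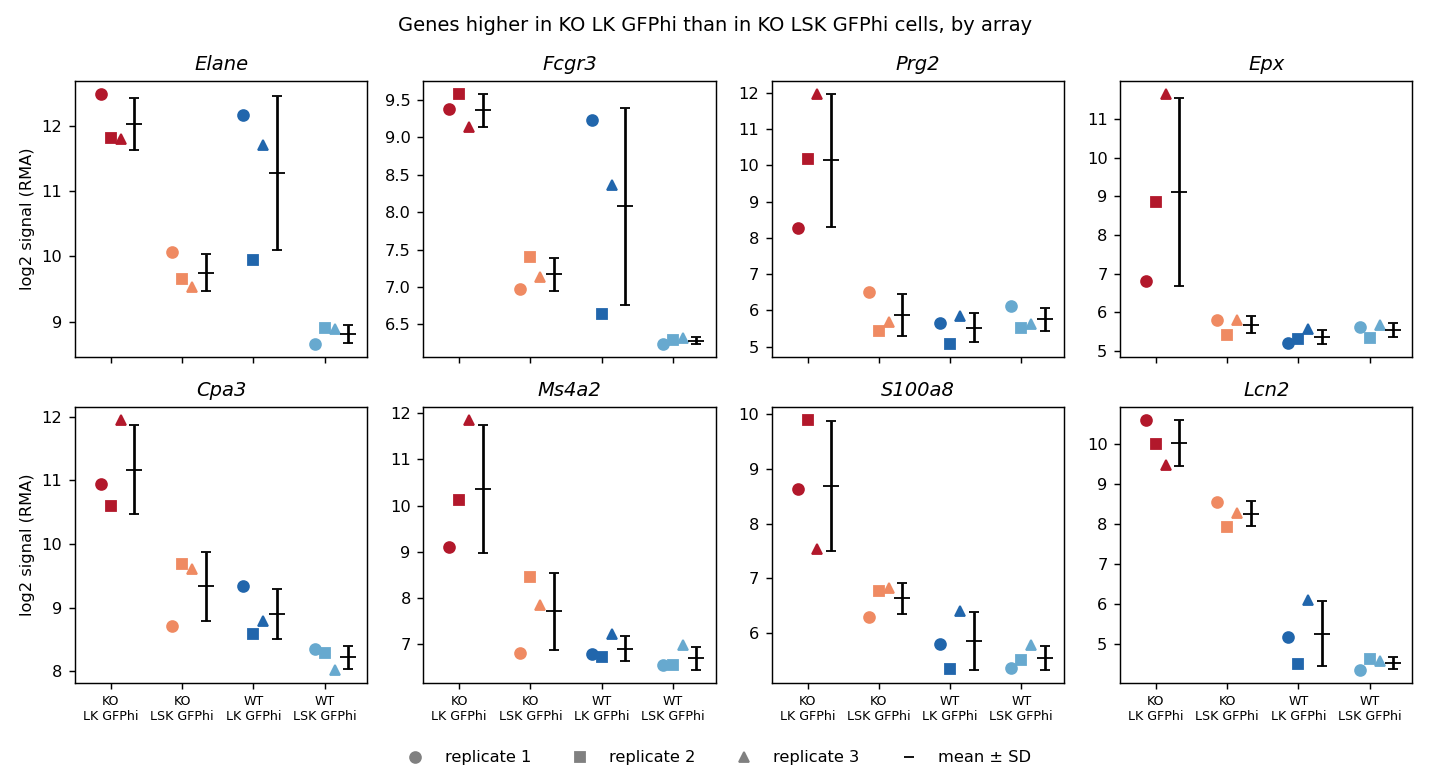
Log2 RMA signal of 8 genes on each array of KO LK GFPhi (KO GMP), KO LSK GFPhi (KO LMPP), WT LK GFPhi and WT LSK GFPhi cells. Symbols mark the replicate numbers and black bars the mean ± SD of 3 arrays. Prg2 lies between 8.27 and 11.96 in KO LK GFPhi and at 6.52 or less in the other groups, and KO LK GFPhi replicate 3 is the highest array for Prg2, Epx, Cpa3 and Ms4a2.

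The 2 largest rises were in genes of eosinophil granules. Prg2, the gene of their major basic protein, had log2 signals of 8.27, 10.18 and 11.96 in KO GMP, against 6.52, 5.43 and 5.68 in KO LMPP. All KO GMP arrays were above those of KO LMPP, WT GMP and WT LMPP. The KO GMP arrays differed widely among themselves, with a mean of 10.14 ± 1.84 (SD, n = 3). The rise was 19.2-fold, 4.26 ± 0.56 (limma, adjusted p = 0.000447). On the WT GMP and WT LMPP arrays Prg2 did not exceed 6.12, and its WT difference was -0.24 ± 0.56. The KO difference exceeded the WT one by 4.50 ± 0.79, which was called (adjusted p = 0.0235) and lost its call in 7 of 22 alternatives.

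Epx, eosinophil peroxidase, had 6.81, 8.85 and 11.66 in KO GMP, against 5.78, 5.41 and 5.81 in KO LMPP, a 10.8-fold rise (3.44 ± 0.66, adjusted p = 0.0116). KO GMP replicate 1 was the array nearest to the KO LMPP arrays, and replicate 3 the farthest from them. The SD of Epx was 2.44 in KO GMP and 0.22 in KO LMPP. A fit of the 6 KO arrays alone did not call it (limma, adjusted p = 0.336). Prg3, another form of major basic protein encoded next to Prg2 on chromosome 2, had 6.85, 8.03 and 9.87 in KO GMP, against 6.45, 6.27 and 6.36 in KO LMPP (1.89 ± 0.42, adjusted p = 0.0321). Siglecf, the sialic acid-binding receptor of mouse eosinophils, had 7.34, 8.48 and 9.21 in KO GMP, against 5.84, 6.82 and 6.89 in KO LMPP (1.83 ± 0.41, adjusted p = 0.0321). In each of the 4 genes the KO GMP replicates had the same order, 3 above 2 above 1.

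These were 4 of 6 eosinophil genes measured, with a median difference of 1.86. The receptors Ccr3 (-0.07) and Il5ra (0.21) were not called. Without KO GMP replicate 3, 3 of the 6 were called and the median was 1.24. Without KO LMPP replicate 2 or 3, 1 of the 6 was called, Prg2. Prg2 stayed called whichever array was left out, with differences of 3.35 to 5.19, while Epx lost its call in 2, Prg3 in 4 and Siglecf in 5 of the 6 fits. In WT cells limma called 0 of the 6, 0 passed at an unadjusted p below 0.05, and the median was -0.04. With the block Siglecf was called in WT cells as well (0.67, adjusted p = 0.0188), and its interaction passed (adjusted p = 0.0428, and 0.632 without the block). The mean log2 signal over the 6 genes was 6.63, 7.66 and 8.91 in KO GMP, against 5.86, 5.72 and 5.84 in KO LMPP. It stayed between 5.48 and 5.75 on the WT GMP and WT LMPP arrays. The mean over 23 erythroid genes was also highest on KO GMP replicate 3, 7.84, 7.90 and 8.60 in KO GMP, against 7.72, 7.96 and 8.03 in KO LMPP. Its part in the eosinophil result was not tested.

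Mast cell and basophil genes rose on the same arrays, 3 of 11 measured, with a median of 0.57 and all 11 above 0. Without KO GMP replicate 3 the median was 0.15 and 2 were called, and without KO LMPP replicate 1 the count was 1. Ms4a2, the beta chain of the high-affinity IgE receptor, had 9.11, 10.11 and 11.86 in KO GMP, against 6.81, 8.46 and 7.86 in KO LMPP (2.65 ± 0.55, adjusted p = 0.0214). Cpa3, carboxypeptidase A3 of mast cell granules, had 10.95, 10.60 and 11.96 in KO GMP, against 8.71, 9.68 and 9.60 in KO LMPP (1.84 ± 0.30, adjusted p = 0.00412). Replicate 3 was the highest KO GMP array for both genes. Hdc, the histamine-forming enzyme, was even among its replicates, 11.36, 11.32 and 11.41 in KO GMP, against 7.67, 9.57 and 9.22 in KO LMPP (2.54 ± 0.50, adjusted p = 0.0143). Hdc was also called in WT cells (2.10 ± 0.50), whereas Ms4a2 (0.21 ± 0.55) and Cpa3 (0.69 ± 0.30) were not. The interaction missed the threshold for Ms4a2 (2.44 ± 0.77, adjusted p = 0.362) and passed it with the block (adjusted p = 0.0278). Cpa3 held its call whichever array was left out. Without KO GMP replicate 3 the Ms4a2 difference was 1.90 and was not called.

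The basophil protease gene Mcpt8 gave 0.61 ± 0.26 and was not called (adjusted p = 0.379). Gata1, the factor of red cells, mast cells and eosinophils, had 8.53, 9.51 and 10.99 in KO GMP, against 7.65, 9.31 and 8.96 in KO LMPP, with overlapping groups (1.04 ± 0.45, adjusted p = 0.397). Klf1, a factor of red cell precursors, had 7.14, 7.62 and 9.28 in KO GMP, against 6.78, 7.27 and 7.61 in KO LMPP (0.79 ± 0.36, adjusted p = 0.434). Both were highest on KO GMP replicate 3.

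The called genes Cpa3, Ms4a2, Prg3 and Epx are shown by the 250 bases before a RefSeq start of each (build GRCm38.p6), since genes of mast cells and eosinophils are known targets of GATA factors. Capitals mark matches to AGATAA or its reverse complement TTATCT, searched on both strands together with TTGCNNAA, a motif of C/EBP factors. Of the 32851 promoters of this length, 9.99% held the first motif and 9.56% the second. The motifs were chosen after the values were seen, and a match is a description of the letters only. No entry was found for Prg2.
Cpa3, chr3:20242182-20242431, minus strand: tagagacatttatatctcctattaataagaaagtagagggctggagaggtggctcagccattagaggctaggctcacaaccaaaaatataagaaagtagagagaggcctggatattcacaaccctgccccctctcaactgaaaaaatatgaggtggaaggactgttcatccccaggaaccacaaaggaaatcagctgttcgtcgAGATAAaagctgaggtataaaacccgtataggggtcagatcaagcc
Ms4a2, chr19:11623720-11623969, minus strand: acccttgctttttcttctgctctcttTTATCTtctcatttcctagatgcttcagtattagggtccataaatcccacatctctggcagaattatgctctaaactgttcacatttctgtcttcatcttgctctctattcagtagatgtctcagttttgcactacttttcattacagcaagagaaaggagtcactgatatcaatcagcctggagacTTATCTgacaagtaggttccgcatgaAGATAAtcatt
Prg3, chr2:84987965-84988214, plus strand: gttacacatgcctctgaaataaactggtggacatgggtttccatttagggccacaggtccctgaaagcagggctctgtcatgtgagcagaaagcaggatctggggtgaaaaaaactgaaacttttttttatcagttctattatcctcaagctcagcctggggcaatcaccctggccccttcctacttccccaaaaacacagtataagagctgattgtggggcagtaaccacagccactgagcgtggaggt
Epx, chr11:87875537-87875786, minus strand: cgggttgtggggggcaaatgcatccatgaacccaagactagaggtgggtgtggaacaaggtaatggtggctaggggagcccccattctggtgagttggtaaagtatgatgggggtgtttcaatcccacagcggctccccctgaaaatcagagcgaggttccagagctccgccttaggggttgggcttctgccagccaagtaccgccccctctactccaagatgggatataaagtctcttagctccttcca
Cpa3 held 1 match, which begins 46 bases before its start. Ms4a2 held 3, at 224, 37 and 11 bases before the start used for its window. The RefSeq gene table lets Ms4a2 begin further upstream, at chr19:11623790. By that table the matches at 37 and 11 lie inside the gene. The windows of Cpa3 and Prg3 also reach into their genes, which begin at chr3:20242209 and chr2:84988196 there. The windows of Prg3 and Epx held 0, and TTGCNNAA had 0 matches in the windows shown.

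The other large rises belong to no list. Tent5a, a noncanonical poly(A) polymerase, had 9.21, 9.77 and 10.17 in KO GMP, against 6.48, 7.56 and 7.60 in KO LMPP (2.50 ± 0.32, adjusted p = 0.000435). WT cells gave 1.45 ± 0.32 for it, also called. Csrp3, a LIM domain protein known from striated muscle, had 6.85, 8.23 and 9.24 in KO GMP, against 6.16, 6.44 and 6.38 in KO LMPP (1.78 ± 0.37, adjusted p = 0.0235). Its replicates had the order of the eosinophil genes, and its call was lost in 5 of the 6 fits with an array left out. Its interaction passed with the block (adjusted p = 0.049) and not in the same fit without it (0.262). Sema4a, a transmembrane semaphorin, was chosen after its values were seen for its small error. It had 9.49, 9.25 and 8.91 in KO GMP, against 7.63, 7.13 and 7.64 in KO LMPP (1.75 ± 0.18, adjusted p = 5.1e-05), and WT cells gave 1.07 ± 0.18. It was read from an _x_at probe set, and without such probe sets its difference was 0.92 and was not called (adjusted p = 0.0847).

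Genes of monocytes and macrophages gave no calls in KO cells. Of 18 measured, 0 were called by limma, with or without the block, 4 passed at an unadjusted p below 0.05, and the median difference was 0.09. In WT cells 7 were called higher and the median was 0.61. F13a1, the transglutaminase coagulation factor XIII of monocytes, had 12.03, 11.97 and 10.95 in KO GMP, against 11.36, 11.47 and 11.12 in KO LMPP. Those groups overlapped (0.34 ± 0.38, adjusted p = 0.854), while WT GMP had 12.50, 11.94 and 12.17, against 8.84, 10.66 and 8.88 in WT LMPP (2.75 ± 0.38, adjusted p = 0.000237). The KO LMPP arrays of F13a1 were above all 3 WT LMPP arrays. The interaction for F13a1 was -2.41 ± 0.53, not called without the block (adjusted p = 0.108) and called with it (0.0407).

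Ly86, the secreted partner of a Toll-like receptor homologue, gave 0.20 ± 0.30 in KO cells and 1.87 ± 0.30 in WT cells. KO GMP averaged 9.32 ± 0.38 and WT GMP 11.87 ± 0.17 (SD, n = 3 each). Csf1r, the receptor for the macrophage growth factor, gave -0.33 ± 0.24 in KO cells and 1.06 ± 0.24 in WT cells. Its KO LMPP arrays (13.15, 12.79 and 12.87) lay above all KO GMP arrays. Irf8, the factor that directs GMP to monocytes, gave -0.05 ± 0.31 in KO cells and 1.27 ± 0.31 in WT cells. Its interaction passed the threshold with the block (adjusted p = 0.0377) and not in the same fit without it (0.392). For Ccr2, the chemokine receptor of monocytes, the values were 0.59 ± 0.20 and 1.29 ± 0.20, and its interaction was called under neither (adjusted p = 0.546 and 0.161). The interactions of Ly86 (adjusted p = 0.197, and 0.0597 with the block) and Csf1r (0.176 and 0.063) were not called either. None of these 5 genes was called in KO cells, and each was called in WT cells. Over the 18 genes the interaction called 0 (7 at an unadjusted p below 0.05), or 3 with the block.

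Stem cell genes were lower in KO GMP. Of 23 measured, 5 were called lower and 0 higher, with a median of -0.57, and 21 lay below 0. With the block 9 were called lower. WT cells called 10 lower, with a median of -0.72. Mecom, a zinc finger factor required by stem cells, had log2 signals of 7.72, 7.82 and 7.21 in KO GMP, against 9.15, 9.44 and 9.56 in KO LMPP. It was 3.49-fold lower in KO GMP (-1.80 ± 0.25, adjusted p = 0.000765), and the call held whichever array was left out. WT cells gave -2.51 ± 0.25, and the interaction was not called (0.71 ± 0.35, adjusted p = 0.623). The other, dimmer probe sets of Mecom gave -0.05 and -0.11.

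Procr, the endothelial protein C receptor of stem cells, had 9.73, 10.14 and 10.31 in KO GMP, against 11.30, 11.59 and 11.49 in KO LMPP (-1.39 ± 0.27, adjusted p = 0.0113). In WT cells it stood lower in both groups, 7.18, 7.87 and 7.27 in WT GMP and 9.27, 8.39 and 9.29 in WT LMPP, and differed by -1.54 ± 0.27. Prdm16, a zinc finger factor of stem cells, differed by -1.47 ± 0.31 (adjusted p = 0.0257), and the adhesion molecule Esam by -0.67 ± 0.13 (adjusted p = 0.0148). The other, dimmer probe sets of Prdm16 gave -0.14, -0.01 and -0.52. Its call was also lost with the mean of its probe sets (-0.53) and with Eif2s3y as a covariate. Mycn, a MYC family factor, had 6.995, 6.18 and 8.48 in KO GMP, against 9.39, 9.08 and 9.02 in KO LMPP (-1.94 ± 0.36, adjusted p = 0.00991). Replicate 3 was the KO GMP array nearest to KO LMPP, and the other 2 probe sets of Mycn gave 0.08 and 0.00. Each of these 4 genes lost its call in 1 to 3 of the 6 fits with an array left out (adjusted p up to 0.127).

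Fgd5, a stem cell marker that encodes an exchange factor, and Hlf, a leucine zipper factor, were called with the block and not in the same fit without it. Fgd5 differed by -0.83 ± 0.26 (adjusted p = 0.174, and 0.0104 with the block), and Hlf by -0.79 ± 0.22 (adjusted p = 0.0983 and 0.0343). Over the settings tried, the limma adjusted p of Hlf ran from 0.0262 to 0.304. Fgd5 stood at 10.49 ± 0.30 in KO GMP and 11.32 ± 0.14 in KO LMPP, against 5.72 ± 0.40 and 7.43 ± 0.08 in WT GMP and WT LMPP (SD, n = 3 each). Among 16 Hox and Meis genes 1 was called. Meis1, the Hox cofactor, had 10.22, 9.41 and 8.70 in KO GMP, against 11.37, 10.86 and 10.93 in KO LMPP (-1.61 ± 0.30, adjusted p = 0.00991), and the WT difference was -1.64 ± 0.30. The call was lost without KO LMPP replicate 1 (adjusted p = 0.058). Hoxa9 gave -0.54 ± 0.21 and was not called (adjusted p = 0.305).

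**Figure D2:**
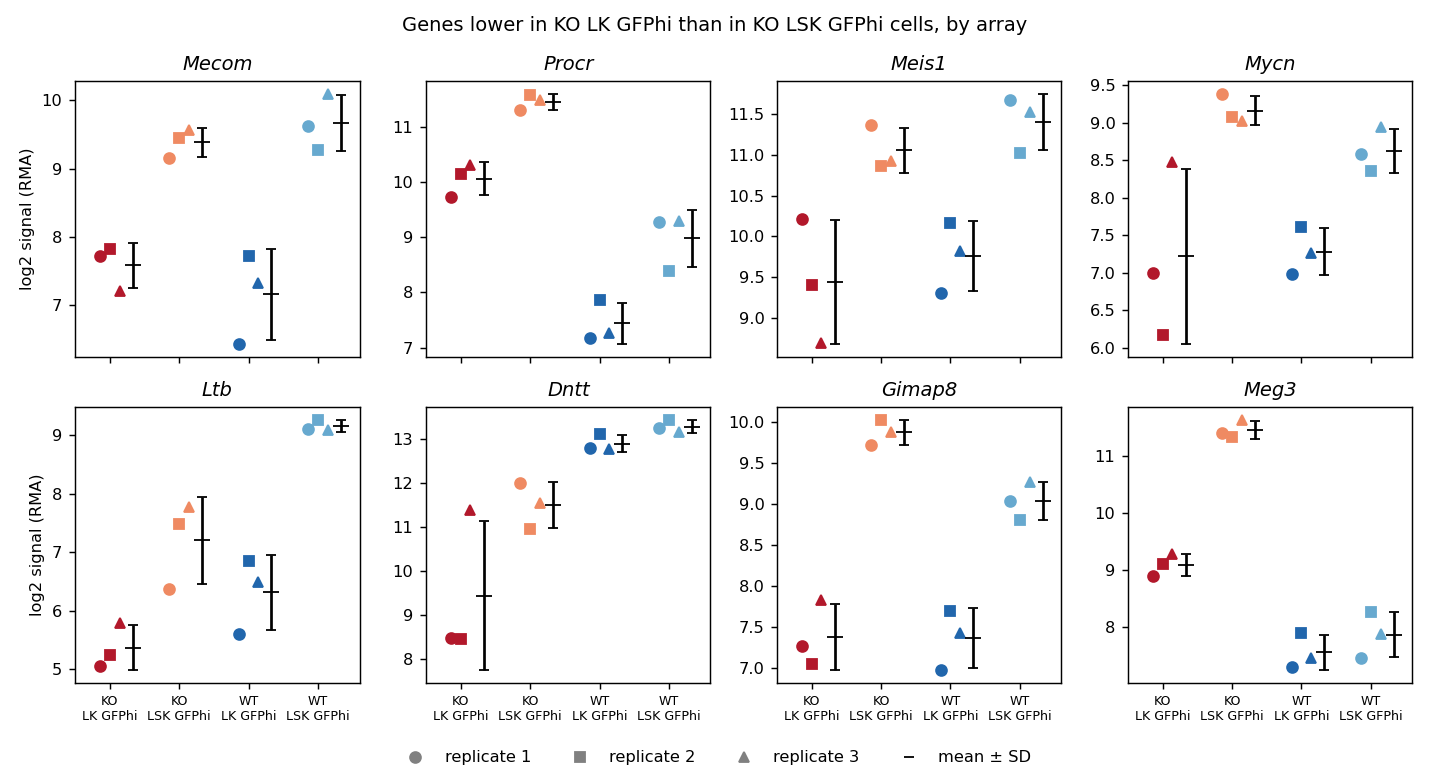
Log2 RMA signal of 8 genes on each array of KO LK GFPhi (KO GMP), KO LSK GFPhi (KO LMPP), WT LK GFPhi and WT LSK GFPhi cells, with symbols for the replicate numbers and mean ± SD of 3 arrays in black. The KO groups do not overlap except for Dntt, where KO LK GFPhi replicate 3 reads 11.39 and the other KO LK GFPhi arrays 8.48 and 8.45.

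Lymphoid priming genes were also lower in KO GMP, 3 of 20 called (median -0.56) and 5 with the block. Ltb, lymphotoxin beta, had 5.06, 5.25 and 5.79 in KO GMP, against 6.36, 7.48 and 7.77 in KO LMPP (-1.84 ± 0.34, adjusted p = 0.00991). It fell further in WT cells (-2.84 ± 0.34), whose LMPP arrays stood at 9.10, 9.27 and 9.08, though the interaction was not called (adjusted p = 0.618). The call was lost without KO LMPP replicate 2 or 3 (adjusted p up to 0.0711). Lax1, a transmembrane adaptor of lymphocytes, differed by -0.96 ± 0.22 (adjusted p = 0.0326), and lost its call in 5 of the 6 fits with an array left out (adjusted p up to 0.137). Without KO LMPP replicate 2 or 3, 0 of the 20 lymphoid genes were called.

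Dntt, terminal transferase, had 8.48, 8.45 and 11.39 in KO GMP, against 12.01, 10.95 and 11.54 in KO LMPP. KO GMP replicates 1 and 2 were below all KO LMPP arrays and replicate 3 was among them. Its difference of -2.06 ± 0.48 passed the threshold (adjusted p = 0.0386) and lost it in 5 of the 6 fits with an array left out. Other probe sets of Dntt gave -0.44 and -0.78. Dntt was read from an _x_at probe set, and without _x_at and _s_at probe sets it was not called (-0.78, limma, adjusted p = 0.562). The call was also lost with the mean of its probe sets, with Eif2s3y as a covariate and with the compared groups alone. The WT arrays of Dntt were all higher, 12.79, 13.11 and 12.76 in WT GMP and 13.25, 13.44 and 13.15 in WT LMPP. Ets1, a factor of lymphocytes, and Mef2c, a factor of lymphoid priming, were called with the block and not in the same fit without it. Ets1 gave -1.22 ± 0.33 (adjusted p = 0.0915, and 0.00875 with the block) and Mef2c -0.69 ± 0.19 (0.101 and 0.0389). In limma fits with 1 KO array left out, the adjusted p ran from 0.0355 to 0.304 for Ets1 and from 0.0229 to 0.358 for Mef2c. Il7r, the IL-7 receptor alpha chain, gave -0.40 ± 0.26 in KO cells and 1.17 ± 0.26 in WT cells, where it was called higher. Of 15 B lineage and 15 T and NK lineage genes 0 were called in KO cells by limma, with or without the block, and 3 and 2 passed at an unadjusted p below 0.05.

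The GIMAP genes, which encode GTPases of lymphocytes and lie side by side on chromosome 6, were lower together. The 8 members measured span chr6:48647186-48770851 (GRCm38.p6), all 8 had a lower mean in KO GMP, and 5 were called, 7 with the block. Gimap8 had 7.27, 7.05 and 7.83 in KO GMP, against 9.73, 10.03 and 9.88 in KO LMPP, 5.65-fold lower (-2.50 ± 0.20, adjusted p = 2.02e-06). Gimap5 had 6.34, 6.34 and 6.12 in KO GMP, against 7.70, 7.94 and 7.52 in KO LMPP (-1.45 ± 0.13, adjusted p = 7.66e-06). Both were well separated and called whichever array was left out, as was Gimap1 (-1.43 ± 0.24, adjusted p = 0.00467).

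Gimap6 differed by -1.58 ± 0.35 (adjusted p = 0.0323) and Gimap7 by -1.05 ± 0.25 (adjusted p = 0.0472), and each lost its call in 5 of the 6 fits. Gimap9 (-0.72 ± 0.22, adjusted p = 0.0244) and Gimap4 (-0.67 ± 0.24, adjusted p = 0.0377) were called with the block and not in the same fit without it. Gimap3 was called in neither (-0.14 ± 0.11). Over the settings tried, the limma adjusted p of Gimap4 ran from 0.0366 to 0.635. Second probe sets gave -2.39 for Gimap6, -1.85 for Gimap4 and -0.00033 for Gimap7, whose call was also lost with the mean of its probe sets. WT cells also called 5 of the 8. Apart from Gimap8, the members were taken up after their values were seen, and neighbours with similar sequence may share probes.

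Of 14 imprinted growth genes measured, 2 neighbours on chromosome 12 were called lower in KO GMP. Meg3 (chr12:109540996-109571729), a noncoding RNA expressed from the maternal allele, had 8.89, 9.10 and 9.28 in KO GMP, against 11.41, 11.32 and 11.63 in KO LMPP. The difference of -2.36 ± 0.22 (5.14-fold lower, adjusted p = 7.66e-06) held whichever array was left out. The 11 probe sets of Meg3 gave -3.26 to 0.07. Dlk1 (chr12:109452485-109463336), a Notch-related ligand expressed from the paternal allele, had 7.75, 7.28 and 8.59 in KO GMP, against 9.13, 9.003 and 9.81 in KO LMPP (-1.44 ± 0.26, adjusted p = 0.00713). Dlk1 was not called without KO LMPP replicate 3 (adjusted p = 0.0542) or without _x_at and _s_at probe sets (-0.91, adjusted p = 0.0614). In WT cells neither was called, with -0.31 ± 0.22 and -0.18 ± 0.26. The interaction was called for Meg3 (-2.05 ± 0.31, adjusted p = 0.00772) and not for Dlk1 (-1.26 ± 0.36, adjusted p = 0.286). Both genes were higher in KO LMPP than on any array of WT GMP or WT LMPP: WT LMPP had 7.47, 8.26 and 7.88 for Meg3 and 6.19, 6.36 and 6.25 for Dlk1.

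The other large falls belong to no single list. Vldlr, a lipoprotein receptor, had 8.61, 9.13 and 8.46 in KO GMP, against 10.62, 11.08 and 10.99 in KO LMPP (-2.16 ± 0.30, adjusted p = 0.000892), and all 6 of its probe sets were lower. Dst, the cytoskeletal linker dystonin, had 6.41, 7.0004 and 6.44 in KO GMP, against 8.48, 8.48 and 8.58 in KO LMPP (-1.90 ± 0.25, adjusted p = 0.000447). The WT differences were -3.28 ± 0.30 and -1.82 ± 0.25, and both genes were called in both genotypes. Mmrn1, the platelet and endothelial protein multimerin, differed by -1.84 ± 0.29 (adjusted p = 0.00291), and Col4a1, a basement membrane collagen chain, by -1.62 ± 0.26 (adjusted p = 0.00346). Il17re, a receptor chain for IL-17C, differed by -1.59 ± 0.23 (adjusted p = 0.00163), while its other probe sets gave -0.65 and 0.00. These 5 genes kept their calls whichever KO array was left out and were also called in WT cells. Other probe sets of Dst gave -0.23 to 0.10.

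Tmem204, a transmembrane protein of endothelial junctions, had 5.52, 5.70 and 7.66 in KO GMP, against 8.95, 9.25 and 9.55 in KO LMPP. It was 7.76-fold lower (-2.96 ± 0.35, adjusted p = 0.000237), the largest fall named, with KO GMP replicate 3 nearest to KO LMPP. The arrays of WT GMP and WT LMPP did not exceed 4.67. The other probe sets of Tmem204 disagreed, at -2.61 and -0.23. Nrep, a small protein of regenerating nerve, differed by -2.13 ± 0.37 (adjusted p = 0.00625) and by -0.60 on its other probe set. The interaction of Nrep passed with the block (adjusted p = 0.019) and not in the same fit without it (0.208). Tgm2, tissue transglutaminase, differed by -1.85 ± 0.35 (adjusted p = 0.0113), and its other probe sets ranged from -1.84 to 0.10. Without probe sets of the _x_at and _s_at types, which can match several transcripts, the Tgm2 value was 0.10 and not called, and neither Tmem204 nor Nrep nor Il17re was called. Of 13 genes of stroma and endothelium 1 was called, Cdh5, the cadherin of endothelial junctions, with 9.81, 9.33 and 9.71 in KO GMP, against 10.32, 10.21 and 10.39 in KO LMPP (-0.69 ± 0.13, adjusted p = 0.0113). WT GMP and WT LMPP arrays of Cdh5 stood at 4.72 to 5.10.

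Interferon response genes gave the most falls of any list in WT cells and few in KO cells. Of 19 measured, 1 was called in KO cells, or 5 with the block, against 12 in WT cells. The median difference was -0.27 in KO cells and -1.11 in WT cells. Rtp4, a chaperone of receptors that interferon induces, had 8.12, 8.16 and 8.78 in KO GMP, against 9.42, 9.41 and 9.43 in KO LMPP (-1.06 ± 0.26, adjusted p = 0.0468), and its WT difference was -1.97 ± 0.26. Its call was lost in 5 of the 6 fits with an array left out. Oasl2, an oligoadenylate synthetase-like protein, gave -1.14 ± 0.37 in KO cells (adjusted p = 0.179, and 0.0355 with the block) and -2.26 ± 0.37 in WT cells. Ifit1, which binds foreign RNA, gave -0.70 ± 0.30 (0.374, and 0.0485 with the block) and -1.82 ± 0.30. All 19 had an interaction above 0 (median 0.84, against 0.06 over all genes), 15 at an unadjusted p below 0.05, and limma called 0 of them, with or without the block. The mean over the list was 7.29, 7.53 and 7.81 in KO GMP, against 7.82, 7.9998 and 8.01 in KO LMPP, and 7.49, 7.95 and 7.93 in WT GMP, against 8.68, 8.73 and 9.52 in WT LMPP. Iigp1, an interferon-induced GTPase outside the list, fell by 1.72 ± 0.41 in KO cells (adjusted p = 0.042) and lost its call in all 6 fits with an array left out.

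Other lists gave few or no calls. Of 30 cell division genes 0 were called by limma, with 0 at an unadjusted p below 0.05, and the median was -0.01, with Mki67, the proliferation antigen, at -0.39 ± 0.26 (adjusted p = 0.656). Of 22 ribosome biogenesis genes 21 lay above 0, with a median of 0.24 against 0.04 over all genes. At an unadjusted p below 0.05, 2 of the 22 passed, where 10.6% of all genes did. Limma called 0 of them, or 1 with the block. Of 21 chemokine receptors and integrins, the lymphocyte receptor Cxcr3 was called, lower by a small amount (-0.47 ± 0.11, adjusted p = 0.0321), a call that was lost in 5 of the 6 fits with an array left out. The 19 megakaryocyte genes, the 16 Notch receptors and targets and the 18 genes of the Ikaros family and its partners held 0 calls by limma, or 1 of the last list with the block (2, 1 and 2 at an unadjusted p below 0.05), with Notch1 at -0.56 ± 0.28 (adjusted p = 0.504).

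**Figure D3:**
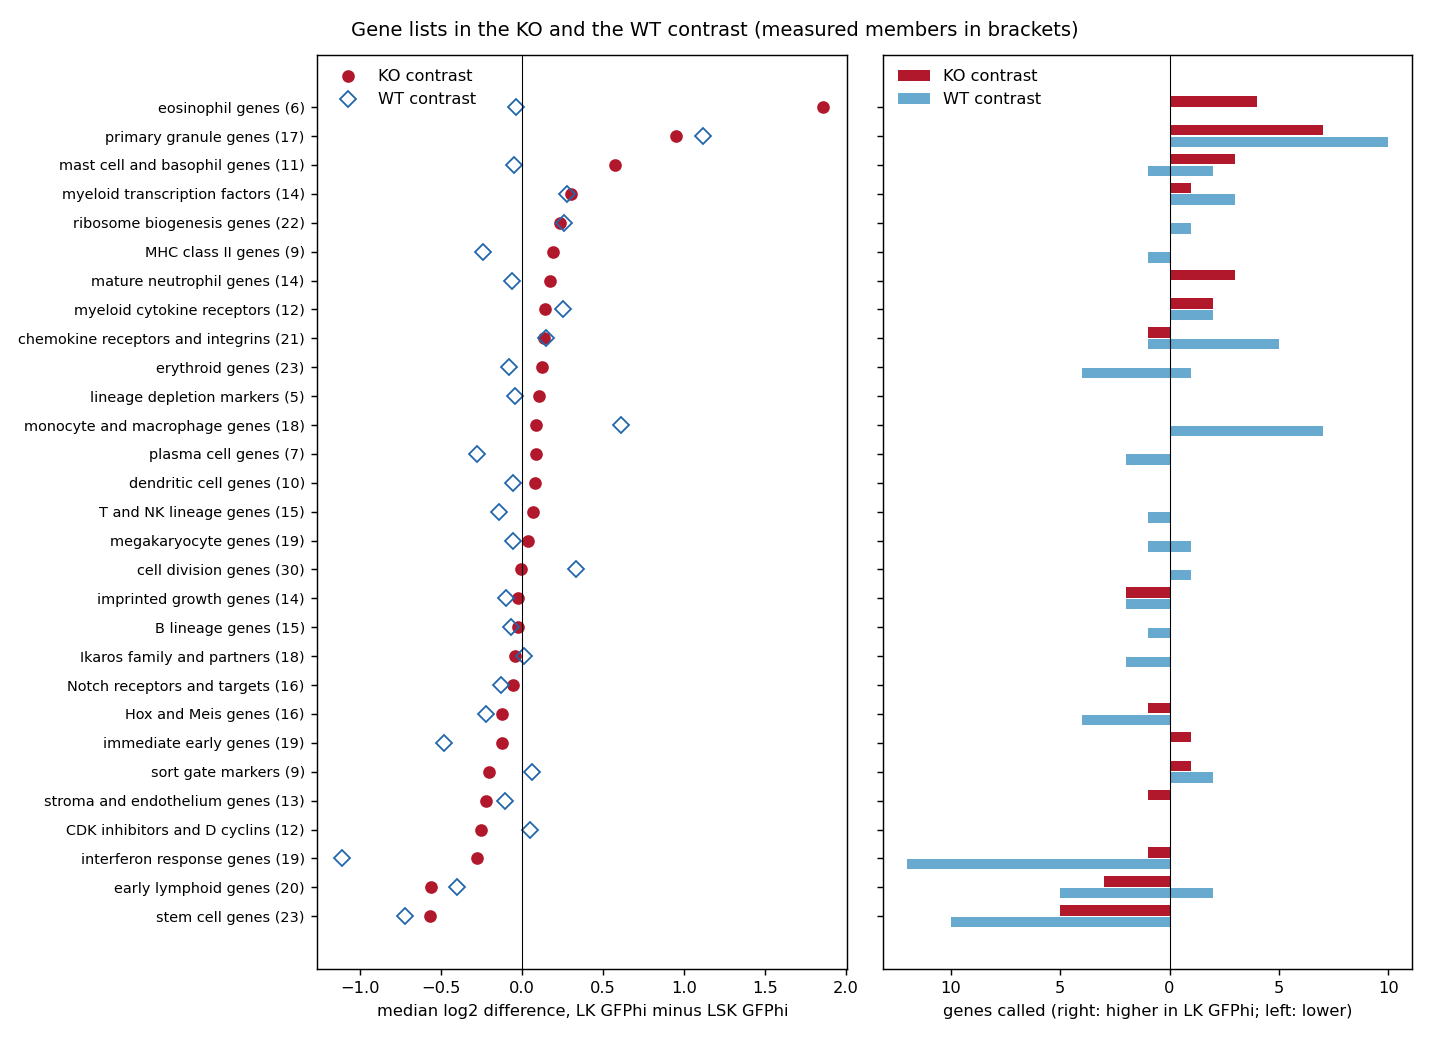
Gene lists ordered by their median in KO cells. The left panel gives the median log2 difference of the measured members (LK GFPhi minus LSK GFPhi) in KO cells (filled circles) and WT cells (open diamonds), and the right panel the number of called genes, higher to the right and lower to the left. Eosinophil genes have the highest KO median (1.86) beside a WT median of -0.04, and interferon response genes the lowest WT median (-1.11) beside -0.27 in KO cells.

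KO and WT differences share no arrays and were set side by side gene by gene. Of the 215 genes called in KO cells, 195 (90.7%) had the same sign in WT cells and 104 (48.4%) were called there with that sign. Of the 827 genes called in WT cells, 722 (87.3%) had the same sign in KO cells and 104 (12.6%) were called. Over all 18193 genes 55.4% had the same sign, and the differences correlated at r = 0.474 (Spearman 0.330) across genes, which are not independent. Genes called in KO cells had a median difference of 0.95 (higher) and -0.96 (lower) in KO cells, and 0.47 and -0.67 in WT cells. Genes called in WT cells had 0.28 (higher) and -0.39 (lower) in KO cells, and 0.84 and -0.84 in WT cells. In each case the genes had been chosen in the genotype with the larger value, so these medians do not show that one genotype changes less.

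**Figure D4:**
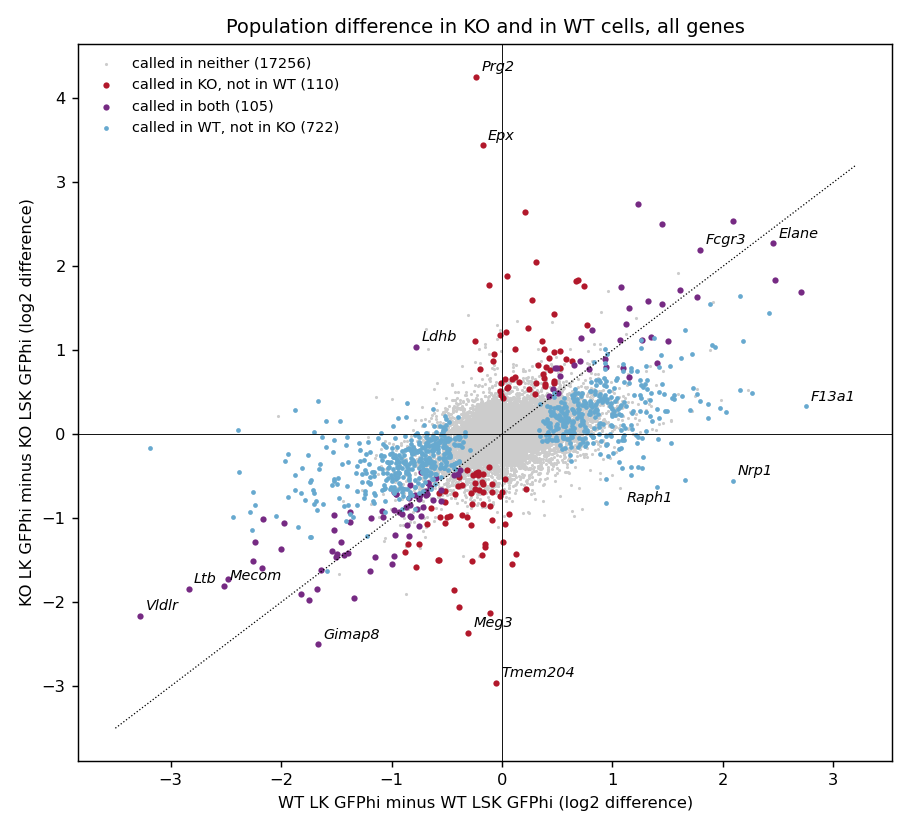
Log2 difference between LK GFPhi and LSK GFPhi cells for 18193 genes, KO on the vertical axis and WT on the horizontal axis. Colours give the comparison in which a gene was called, and the dotted line marks equal differences. Prg2 (4.26 in KO, -0.24 in WT) and Tmem204 (-2.96 and -0.06) lie far from the line, and Elane (2.28 and 2.45) lies near it.

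The test of the difference itself, the interaction of population and genotype, called 26 genes (0.143%), 12 with a higher (0.066%) and 14 with a lower value (0.077%) in KO cells, and 141 (0.775%) with the block. At an unadjusted p below 0.05 it gave 1476 genes (8.11%). Of the 26, 5 were called in KO and not in WT cells, 20 in WT and not in KO cells, and 1 in both. The genes named are the 8 largest each way, and the interaction calls of Ldhb, Nrp1 and Raph1 held under all 22 alternatives tried for them.

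Ldhb, a lactate dehydrogenase subunit, was the one called in both, in opposite directions. It had 9.94, 10.21 and 10.04 in KO GMP, against 8.72, 9.20 and 9.15 in KO LMPP (1.04 ± 0.18, adjusted p = 0.00576), and 9.27, 8.87 and 9.34 in WT GMP, against 9.62, 10.22 and 9.97 in WT LMPP (-0.77 ± 0.18, adjusted p = 0.0144). The directions were opposite, with an interaction of 1.82 ± 0.25 (adjusted p = 0.00312). Lrg1, a secreted leucine-rich glycoprotein of neutrophil granules, had 6.74, 7.47 and 6.93 in KO GMP, against 5.58, 5.89 and 6.13 in KO LMPP (1.18 ± 0.16, adjusted p = 0.000827). WT GMP and WT LMPP arrays of Lrg1 stayed at 4.60 to 4.93, and the interaction was 1.19 ± 0.23 (adjusted p = 0.0413). Bach2, a transcriptional repressor of lymphoid cells, had 7.51, 7.79 and 7.53 in KO GMP, against 9.06, 9.07 and 9.34 in KO LMPP (-1.55 ± 0.23, adjusted p = 0.00163). In WT cells Bach2 was not called (0.09 ± 0.23), and WT GMP had 8.89, 9.83 and 8.91, against 9.11, 9.23 and 9.03 in WT LMPP, and the interaction was -1.64 ± 0.32 (adjusted p = 0.0461), a call lost in 17 of 22 alternatives, 11 of them fits with 1 array left out. Prg2, Meg3 and Tmem204 completed the set called in KO cells.

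Of the 16 genes, 5 were called higher in WT GMP and were not called in KO cells. Nrp1, a coreceptor for semaphorins and VEGF, had 9.53, 9.35 and 9.83 in KO GMP, against 10.58, 9.72 and 10.07 in KO LMPP, and 8.94, 8.92 and 8.88 in WT GMP, against 6.49, 7.31 and 6.68 in WT LMPP (interaction -2.64 ± 0.28, adjusted p = 0.000251). The KO LMPP arrays of Nrp1 were above every array of WT GMP and WT LMPP. Raph1, which encodes the actin regulator lamellipodin, gave -0.55 ± 0.17 in KO cells and 1.66 ± 0.17 in WT cells (interaction adjusted p = 0.000251). Tifab, an inhibitor of TRAF signalling, gave 0.50 ± 0.23 and 2.26 ± 0.23 (interaction adjusted p = 0.0248). S1pr3, a receptor for sphingosine 1-phosphate, gave -0.81 ± 0.22 and 0.94 ± 0.22 (interaction adjusted p = 0.0235). Hpse, heparanase, gave -0.49 ± 0.23 and 1.17 ± 0.23 (interaction adjusted p = 0.0458). With the block, the falls of Raph1 and S1pr3 in KO cells were called as well (adjusted p = 0.0425 and 0.0212).

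Another 5 were called lower in WT GMP and were not called in KO cells. Igkv8-30, an immunoglobulin kappa variable segment, had 5.34, 4.96 and 4.63 in KO GMP, against 5.13, 4.90 and 4.77 in KO LMPP, and 5.96, 5.28 and 5.26 in WT GMP, against 8.89, 7.07 and 7.72 in WT LMPP (interaction 2.44 ± 0.44, adjusted p = 0.0247). The WT LMPP arrays were above those of WT GMP, KO GMP and KO LMPP. Gcsam, a signalling protein of germinal centre B cells, gave 0.39 ± 0.25 in KO cells and -1.67 ± 0.25 in WT cells (interaction adjusted p = 0.0235). Clec2i, a lectin-like ligand of natural killer receptors, gave 0.03 ± 0.16 and -1.70 ± 0.16 (interaction adjusted p = 0.00183). Wfdc18, a small secreted protein, gave -0.24 ± 0.19 and -1.76 ± 0.19 (interaction adjusted p = 0.0235). Hnf4a, a nuclear receptor known from liver, gave -0.21 ± 0.18 and -1.53 ± 0.18 (interaction adjusted p = 0.0457). In all 5 of these genes the KO groups overlapped.

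**Figure D5:**
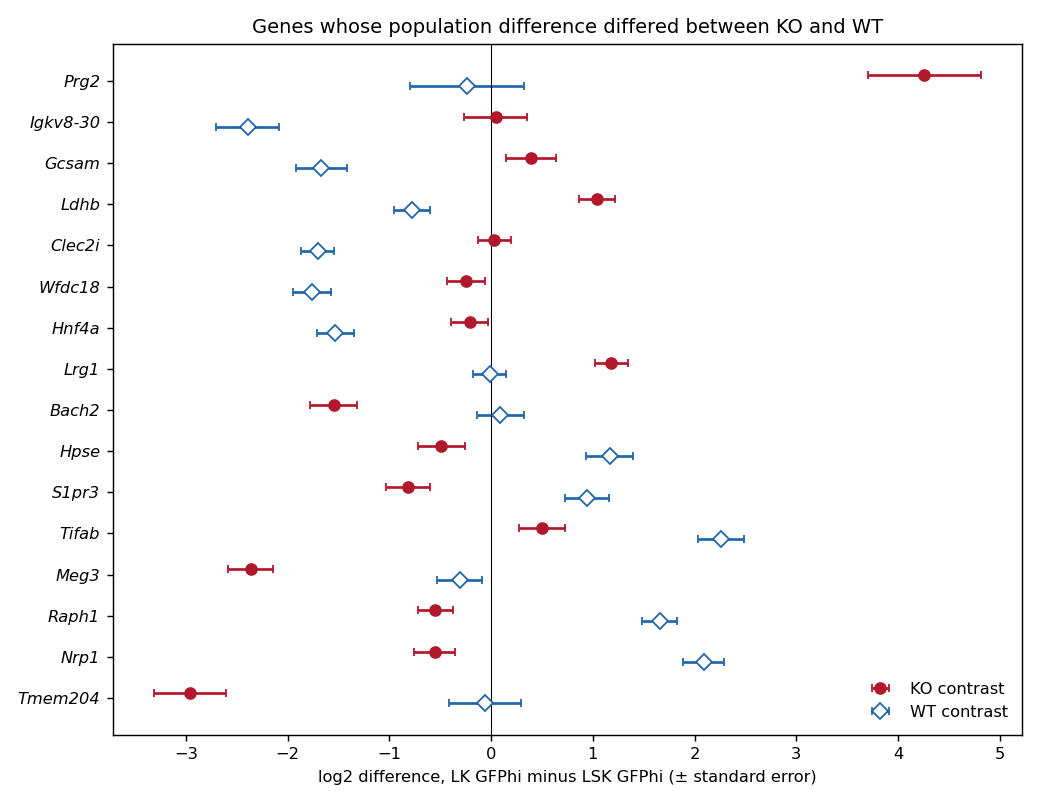
Log2 difference between LK GFPhi and LSK GFPhi cells, with limma standard errors, in KO cells (filled circles) and WT cells (open diamonds) for the 16 genes with the largest called interactions. Prg2 is at 4.26 in KO cells and -0.24 in WT cells, and Nrp1 at -0.55 and 2.09.

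Of the 54 genes named above that were called in KO cells, 15 were also called in a fit of the 6 KO arrays alone. They were Fcgr3, Elane, Dmkn, Igsf6, Cst7, Sema4a, Mecom, Procr, Vldlr, Dst, Iigp1, Gimap8, Gimap5, Meg3 and Bach2. Neither the eosinophil genes nor the mast cell genes were among them (Prg2, adjusted p = 0.122, Cpa3, 0.155). Whichever of the 6 KO arrays was left out, 23 of the 54 kept their call, and with the replicate block all 54 did. The block changed the counts of some lists by 1, to 8 granule genes, 3 cytokine and Fc receptors, 4 late neutrophil genes and 4 mast cell and basophil genes higher, and to 2 Hox and Meis genes lower. Leaving out single KO arrays gave 2 to 5 stem cell genes, 0 or 1 Hox and Meis genes, 0 or 1 interferon response genes and 0 or 1 genes of stroma and endothelium called lower.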

How the data were processed

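Per the labels' protocols, RNA was isolated with Trizol, and 6 ug of it was turned into biotinylated cRNA. Per the submitters' processing notes, the authors used RMA, for which the sources used here give no version. The deposited values are log2 signal and ranged from 3.33 to 14.5. Precision is limited by the small number of arrays. Of 45101 probe sets, 64 controls, 932 with several symbols and 9160 with none were left out. A single symbol was given for 34945, and the Entrez ID of 34741 was in the RefSeq gene table (GRCm38.p6), with 0 symbols changed. Each gene was read from its brightest probe set, by mean over the 24 arrays, which gave 18193 genes. Gene coordinates come from that table, since the array files hold none. All columns of per-sample values were used.

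The test was that of limma 3.58.1 (R 4.3.3, functions lmFit and eBayes). A single model of the 8 group means was fitted to the 24 arrays, which left 16 residual degrees of freedom, with 3.27 prior ones. The p-values are two-sided and adjusted by Benjamini and Hochberg over all genes of a comparison. They test a group difference against the spread between arrays, pooled over the 8 groups and moderated by eBayes. The replicate number enters only the fit with the block. An exact permutation test of 3 against 3 arrays cannot go below 0.1. The steps were tested on simulated data.

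Residuals of same-numbered arrays correlated at r = 0.632, 0.397 and 0.232 for KO GMP with KO LMPP, and at 0.582, 0.673 and 0.670 in WT cells. All exceeded 0.1, but so did some pairs with unlike numbers. KO GMP replicate 2 with KO LMPP replicate 3 gave 0.256, above the 0.232 of the KO arrays numbered 3, which differed in Y-linked RNA. The highest such WT pair gave 0.122, below all same-numbered WT pairs. Pairing is therefore uncertain in KO cells, above all for the arrays numbered 3. The fit with replicate number within genotype as a block is given beside KO and interaction calls that it changes. The labels do not say what the numbers mark.

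The 30 gene lists and a panel of 40 genes (38 measured) were chosen with earlier results of these data known, as were the comparison and the genes described. The text names the 15 genes with the largest rise and the 15 with the largest fall among those called with no overlap of the KO arrays, the 8 largest interactions each way, up to 4 called members of each list by adjusted p, and the panel. Clone symbols were skipped, as were some list or panel genes where their list is given as a count. Genes outside this rule were named after their values were seen: Igsf6, Cst7, Ms4a3, Camp, Klf1, Sema4a, F13a1, Ly86, Ccr2, Prdm16, Ifit1, Oasl2, the GIMAP genes other than Gimap8, Ets1, Mef2c, Eif2s3y, Ccr3 and Il5ra. The following were tried in place of these settings: fitting the compared groups alone, the block, dropping the dimmest 40% of probe sets (leaving 12368 genes), dropping _x_at and _s_at probe sets (leaving 17903), averaging a gene's probe sets, eBayes with trend and robust, weighting arrays by quality, centring on the median, quantile normalizing again, adjusting for Eif2s3y, requiring 2-fold, and omitting single arrays.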

Additional observations from a re-analysis of the deposited data

Results flagged for a closer look

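The 16 genes below had a difference between GMP and LMPP that differed between KO and WT cells by the interaction test of limma (adjusted p below 0.05, n = 3 arrays per group). The value after each gene is the KO difference minus the WT difference on the log2 scale. It was 4.50 for Prg2, 2.44 for Igkv8-30, 2.06 for Gcsam, 1.82 for Ldhb, 1.74 for Clec2i, 1.52 for Wfdc18, 1.32 for Hnf4a and 1.19 for Lrg1. It was -2.90 for Tmem204, -2.64 for Nrp1, -2.20 for Raph1, -2.05 for Meg3, -1.76 for Tifab, -1.76 for S1pr3, -1.66 for Hpse and -1.64 for Bach2. The calls of Ldhb, Nrp1 and Raph1 held under all 22 alternatives. Of 20 to 22 alternatives, Meg3 and Clec2i lost theirs in 1, Gcsam and Wfdc18 in 5, S1pr3 and Igkv8-30 in 6, Prg2 and Tifab in 7, and Tmem204 in 8. Lrg1 and Hnf4a lost theirs in 13, Hpse in 14 and Bach2 in 17. Without _x_at and _s_at probe sets the interaction was -0.25 for Tmem204 and 0.16 for Hnf4a. For Prg2 the 3 KO GMP arrays read 8.27, 10.18 and 11.96, and their KO LMPP counterparts 6.52, 5.43 and 5.68. Meg3, Tmem204 and Bach2 were higher in KO LMPP than in KO GMP, with WT differences near 0 (-0.31, -0.06 and 0.09).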

How the results depend on the processing

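The count of genes called between KO GMP and KO LMPP, 215, was 43 with only the compared groups, 647 with the replicate block, 480 with array weights, 135 with Eif2s3y as a covariate, 95 with a 2-fold minimum, and 68 (without KO LMPP replicate 3) to 222 (without KO GMP replicate 3) when KO arrays were left out singly. Without KO LMPP replicates 1 and 2 it was 98 and 91. It stayed between 177 and 263 with the other settings. The WT count, 827, was 149, 2561, 2226 and 279 with the compared groups alone, the replicate block, array weights and the 2-fold minimum, and 305 (without WT GMP replicate 1) to 1708 (without WT GMP replicate 2) without single arrays. The interaction count, 26, was 8 with the compared groups alone, 141 with the replicate block, 12 without the dimmest probe sets, 43 with the mean of a gene's probe sets, 91 with array weights, and 6 (without WT GMP replicate 3) to 53 (without WT GMP replicate 2) without single arrays. The cause was not tested, except that a fit of fewer arrays has fewer degrees of freedom. Of the 54 named genes called in KO cells, 54 kept the call with the replicate block, trend and robust eBayes, and array weights, 53 with either rescaling, 47 with the mean of a gene's probe sets, 42 with the Eif2s3y covariate and 15 with the compared groups alone. All 46 that remained without the dimmest probe sets kept it, and 42 of 51 without _x_at and _s_at probe sets. The KO difference changed sign in 7 named genes. Tgm2 was 0.10 and Hnf4a 0.084 without _x_at and _s_at probe sets. Apart from Tgm2, none of the 7 was called in KO cells in any setting. Ikzf1 was 0.024 with the Eif2s3y covariate, Irf8 0.11 with the mean of probe sets, and Clec2i -0.075 with that mean and -0.012 with quantile normalization. Without single KO arrays, Ikzf1 ranged from -0.49 to 0.19, Irf8 from -0.15 to 0.068, Ly86 from -0.013 to 0.50, Igkv8-30 from -0.14 to 0.22 and Clec2i from -0.11 to 0.17. Rescaling moved the median of all genes by -0.01 and -0.02, and the signal of dim probe sets limits small differences.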

Other observations

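Il7r averaged 7.21 ± 0.47 in KO GMP and 7.61 ± 0.35 in KO LMPP, against 9.995 ± 0.25 in WT GMP and 8.83 ± 0.60 in WT LMPP (SD, n = 3 each). Notch1 averaged 10.02 ± 0.16 in KO GMP and 10.59 ± 0.10 in KO LMPP, against 11.45 ± 0.38 in WT GMP and 11.71 ± 0.18 in WT LMPP. Of the 30 cell division genes, 28 had an interaction below 0 (median -0.44, against 0.06 over all genes), 5 passed at an unadjusted p below 0.05, and limma called 0 of them, with or without the block.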
